A study of Mus musculus with 9 samples.

Results

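The step from an activated B cell to a plasma cell (PC) was described from 6 RNA-seq libraries of mouse spleen, 3 of NP-specific B cells and 3 of NP-specific PCs. The genes compared were those with at least 1 TPM (a transcript count scaled to a fixed library total and to transcript length) in at least 3 of these 6 libraries, in the expression table that omits immunoglobulin (Ig) genes. This rule took 11759 of the 29995 genes in that table, and 9571 of them reached the minimum in all 6 libraries. A further 3 libraries of naive B cells shared the fit of the spread and are given as background.

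All 9 libraries came from B6.Blimp1+/GFP mice, which carry GFP in place of a Prdm1 allele, so that transcription of Prdm1 (the gene of Blimp1) makes a cell fluoresce and every group, naive cells included, has a single intact Prdm1 copy. The animals were 12 weeks old and were examined 4 days after an intraperitoneal dose of 50 µg NP-LPS, a hapten (nitrophenyl) coupled to bacterial lipopolysaccharide that drives B cells without T cell help. NP-specific B cells were NP+ B220+ IgD- GFP- CD138-, and PCs were NP+ IgD- GFP+ CD138+ with B220 present or absent. Naive B cells were IgD high and did not bind NP. Cells bearing CD4, CD8a, Ter-119 or F4/80 were left out of every sort. Prdm1 and Sdc1, the gene of CD138, are therefore sort markers and are given as a description only. By the study's account both NP-binding populations were sorted from 3 animals, and which B cell and PC libraries share an animal is not stated.

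A plasma cell is the end stage of the B lineage and is known for its output of antibody. Antibody chains enter the endoplasmic reticulum (ER) through a translocation channel, receive sugars, fold with the help of chaperones, and travel in coated vesicles through the Golgi. Load in the ER is sensed by the unfolded protein response (UPR), whose IRE1 branch splices the Xbp1 message. Blimp1 is known as a repressor of the B cell programme, which includes antigen presentation, B cell receptor signalling and responses to chemokines.

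The libraries held 34918379 to 38602257 estimated reads in NP-specific B cells against 20189947 to 22137412 in PCs, Ig genes excluded. PC replicate 3 stood apart. Its liver transcripts made up 1.31% of TPM, against 0.00748% and 0.00715% in PC replicates 1 and 2, and results that rest on it are given below without it. NP-specific B cell replicate 2 lay closer to naive B cells (Pearson r 0.874 to 0.886 across genes, which are not independent) than replicates 1 and 3 did (0.827 to 0.852). It also lay closer to the PC libraries (0.721 to 0.726) than they did (0.681 to 0.703). The defining B cell list (Pax5 and the like) summed to 7426 to 7948 TPM in NP-specific B cells against 1703 to 1849 in PCs, with 10 of 10 genes lower in PCs, and the PC list (Xbp1, Mzb1 and the like) to 1053 to 1323 and 21783 to 23221, with 7 of 7 higher, of which Sdc1 and Prdm1 follow from the sort. Summed T cell markers were at most 64.7 TPM in any of the 6 libraries, and neutrophil markers were highest in NP-specific B cell replicate 2, at 54.8 TPM. Macrophage markers summed to 41.0, 49.5 and 133.7 TPM in PC replicates 1, 2 and 3, with 60.1 to 75.4 in the B cell libraries. The part of these in the results was not tested.

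A gene was called when its fold change was over 2 and its Benjamini-Hochberg adjusted p-value from limma was under 0.05. By this rule 1259 genes (10.7% of those tested) were higher in PCs and 2824 (24.0%) were lower. The 3 PC libraries lay above all 3 NP-specific B cell libraries for 18.2% of genes and below them for 43.8%. A fold over 8 was reached by 195 rises (1.66%) and 356 falls (3.03%). Of 200 genes that passed the minimum through the PC libraries alone, 181 were called higher, and of 298 that passed through the B cell libraries alone, 267 were called lower. Such genes could hardly have given another answer, so the counts of calls support nothing by themselves. Of the genes named here, Kdelr3, Chst1, Ccr10, Il15, Vegfa, Wipi1, Trf and Mt2 passed through the PC libraries alone, and Ciita, Ccr7, S1pr3, Rgs13, Tlr1, Tlr3, Tnf, Lck, Cd5, Ms4a4c and Serpinb1a through the B cell libraries alone. The filter fixed the direction of these 19 genes, and their changes are given as a description. Bulk libraries do not tell fewer cells of a type from less RNA per cell.

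The number of calls in each direction rested on the scaling. The median log2 change over all tested genes was -0.34. Scaling by the median of ratios raised it by 0.40, to 0.05, and then 1949 genes (16.6%) were higher and 1750 (14.9%) lower. Rises thus made up 30.8% of calls with the main scaling and 52.7% with the median of ratios. Keeping the Ig genes in the denominator, so that a value is a share of all mRNA, moved the median to -1.41 and gave 405 rises (3.73%) and 7279 falls (67.0%). Changes below are therefore best read against the median of -0.34, and families whose direction turns under another scaling are named as such.

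**Figure D1:**
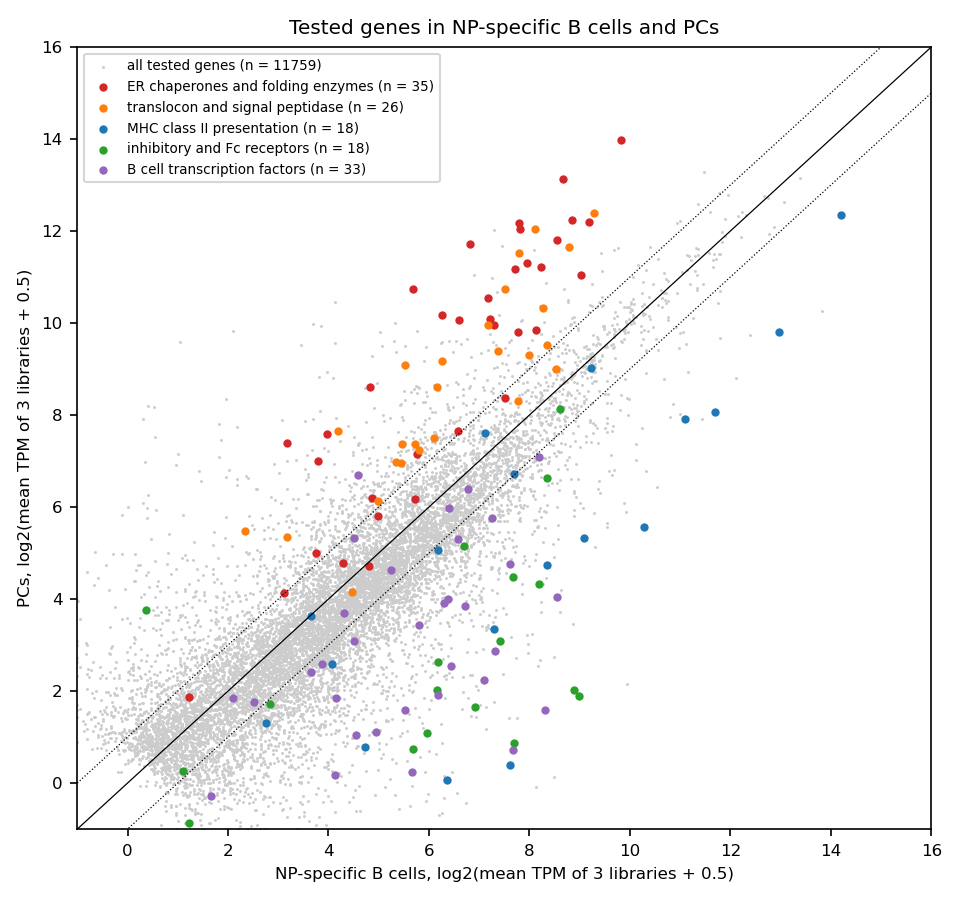
Mean TPM of each tested gene in NP-specific B cells (x axis) and PCs (y axis), both as log2(mean TPM + 0.5) over 3 libraries, with the line of equality (solid) and 2-fold lines (dotted). Most ER chaperone and translocon genes lie above the diagonal (29 of 35 and 23 of 26 called higher), and most MHC class II, inhibitory receptor and B cell transcription factor genes below it (14 of 18, 15 of 18 and 24 of 33 called lower), with members of each near or across the line.

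The most abundant messages changed at this step. Ranks by mean TPM were taken over all tested genes, which omit Ig genes. Mitochondrial, ribosomal protein and predicted genes were ranked but are not named. Mzb1 (an ER co-chaperone of antibody assembly) ranked 152 in NP-specific B cells against 1 in PCs. Hsp90b1, the ER member of the HSP90 family, went from rank 388 to 4, and Sec11c, a catalytic subunit of signal peptidase, from 238 to 13. Cd74, the invariant chain of MHC class II, was the most abundant message of NP-specific B cells and ranked 15 in PCs. Its TPM was 19041, 18616 and 19247 in the B cell libraries and 5472, 5402 and 4815 in the PC libraries. TPM is a value per transcript length, so levels of different genes can be set side by side.

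ER chaperones and folding enzymes rose together. Of 35 tested (of 37 listed), 29 were higher and 0 lower, with a median log2 change of 3.00 against -0.34 for all genes. Their summed TPM was 5914, 6223 and 6807 in NP-specific B cell replicates 1, 2 and 3, 4147 to 4609 in naive B cells, and 70887, 70820 and 71227 in PCs. The PC libraries lay far above the others and close to each other. The prolyl isomerase Fkbp11 (chromosome 15, 98724366 to 98728198, GRCm38) had 53.2, 46.8 and 52.0 TPM in NP-specific B cells against 1724, 1581 and 1832 in PCs, a log2 change of 5.07 ± 0.12 (SE, adjusted p = 1.46e-10, limma). Creld2, a disulfide isomerase released under ER stress (chromosome 15, 88819646 to 88826683), had 113.1, 93.6 and 129.7 TPM before and 3136, 3448 and 3585 after (4.92 ± 0.11, adjusted p = 1.34e-10, limma). Hsp90b1 (chromosome 10, 86690209 to 86705509) rose from 371.2, 383.5 and 458.3 TPM to 8872, 8630 and 9544 (4.48 ± 0.11). No B cell library came near a PC library for any of these 3 genes. The membrane-bound lectin chaperone Canx was an exception within the group, at 180.3, 166.7 and 199.1 TPM in NP-specific B cells against 349.0, 342.8 and 301.9 in PCs. Its log2 change of 0.86 ± 0.13 missed the fold threshold, whereas its soluble counterpart Calr rose by 3.40 ± 0.16.

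Promoters of this group were searched for the letters of 3 UPR elements, since the data show its genes rising together. The windows were the 250 bases before each start in the RefSeq table (GRCm38.p6), which held 8839 of the 11759 tested genes, and both strands were read. The ER stress response element (ERSE) was read as CCAAT and CCACG with 9 free bases between them, ERSE-II as ATTGG and CCACG with 1 free base between them, and the UPR element (UPRE) core as TGACGTGG. An ERSE and an ERSE-II cannot be the same match. ERSE letters were found in 16 genes (0.181%), of which 9 were among the 921 genes called higher with a promoter and 0 among the 2198 called lower. They were found in 8 of 30 ER folding genes with a promoter (26.7%) and in 2 of 24 ER-associated degradation genes. Other rising families held few or none, with 1 of 34 N-glycan assembly genes and 0 of 19 translocation genes. ER to Golgi transport had 0 of 58 and UPR regulators 0 of 16. The elements are printed because they carry the shared spacing, read 5′ to 3′ on the strand that holds them, with the fixed letters in capitals.
Hspa5 (chr2:34772025-34772043, 47 bases before the start): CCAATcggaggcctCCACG
Hsp90b1 (chr10:86705638-86705656, 194 bases before): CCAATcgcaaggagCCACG
Hsp90b1 (chr10:86705533-86705551, 89 bases before): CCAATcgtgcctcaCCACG
Calr (chr8:84847075-84847093, 144 bases before): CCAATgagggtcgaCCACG
Pdia6 (chr12:17266491-17266509, 80 bases before): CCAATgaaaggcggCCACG
Dnajc3 (chr14:118937827-118937845, 87 bases before): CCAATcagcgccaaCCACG
Ero1lb (chr13:12565682-12565700, 183 bases before): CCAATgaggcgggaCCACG
Creld2 (chr15:88819520-88819538, 108 bases before): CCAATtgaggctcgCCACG
Derl3 (chr10:75893242-75893260, 138 bases before): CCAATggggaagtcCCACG
Syvn1 (chr19:6046532-6046550, 26 bases before): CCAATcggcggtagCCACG
Canx (chr11:50325800-50325818, 127 bases before): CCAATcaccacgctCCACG
All of these genes except Canx were called higher. Distances run from the end of the element to the gene's start.

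The element of Creld2 is also that of Alg12, since the 2 genes are read in opposite directions from a shared stretch of chromosome 15. Alg12, a mannosyltransferase of the sugar precursor, had 7.05, 10.9 and 14.2 TPM in NP-specific B cells against 21.7, 18.7 and 15.5 in PCs (0.81 ± 0.24, not called), while Creld2 rose by 4.92. Neighbouring bases are printed for Creld2, Derl3, Dnajc3 and Calr, chosen from the elements whose surroundings overlap no annotated exon, and for Herpud1, which holds the ERSE-II form. Each stretch reads 5′ to 3′ on the gene's own strand with 40 bases on each side, and the capitals mark the element.
Creld2 (chr15:88819480-88819578, + strand): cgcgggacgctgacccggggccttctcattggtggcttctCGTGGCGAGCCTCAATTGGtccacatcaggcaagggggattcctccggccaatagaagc
Derl3 (chr10:75893202-75893300, + strand): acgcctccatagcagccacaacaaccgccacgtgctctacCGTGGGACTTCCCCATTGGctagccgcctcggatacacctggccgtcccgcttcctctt
Dnajc3 (chr14:118937787-118937885, + strand): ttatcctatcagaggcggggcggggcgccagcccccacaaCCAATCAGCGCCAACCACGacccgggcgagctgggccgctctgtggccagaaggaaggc
Calr (chr8:84847035-84847133, - strand): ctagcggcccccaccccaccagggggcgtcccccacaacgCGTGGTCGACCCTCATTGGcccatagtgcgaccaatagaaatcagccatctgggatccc
Herpud1 (chr8:94386337-94386427, + strand): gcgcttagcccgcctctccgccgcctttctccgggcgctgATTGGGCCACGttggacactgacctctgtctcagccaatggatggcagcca
ERSE-II letters stood before 6 genes in all (0.0679%), of which Herpud1 and Nucb1, a calcium-binding Golgi protein (2.77 ± 0.10), were called higher and 0 lower. The UPRE core stood before 75 genes (0.849%) and before 19 of the 921 called higher (2.06%) and 12 of the 2198 called lower (0.546%). The 19 include Sec24d, Kdelr3, Txndc5, Txndc11, Ube2j1 and Isg20. A match is a description of letters and not evidence of a bound site, and Fkbp11 holds none of the 3 in its window.

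Genes that bring nascent chains into the ER rose too. Of 26 tested genes of the signal recognition particle, the translocon and signal peptidase, 23 were higher and 0 lower, with a median of 2.04, and 12 higher and 1 lower with Ig genes kept. Their sum was 3875 to 4306 TPM in NP-specific B cells against 25310 to 25650 in PCs. Spcs1, a signal peptidase subunit, had 283.2, 256.9 and 283.2 TPM before and 4169, 4183 and 4369 after (3.95 ± 0.08, adjusted p = 9.97e-11, limma). Ssr4 and Ssr3, subunits of the translocon-associated TRAP complex, rose by 3.72 ± 0.07 and 3.56 ± 0.10. Paralogues did not move alike. Sec11c, a signal peptidase catalytic subunit, rose from 594.3 to 633.9 TPM to 5325 to 5459 (3.12 ± 0.07), whereas the log2 change of the alternative subunit Sec11a was 0.53 and that of Sec61a2 was -0.32, both without a call.

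N-glycan assembly followed, with 25 of 40 genes higher, 0 lower and a median of 1.5. The genes furthest up encode subunits of the oligosaccharyltransferase itself. Krtcap2 had 241.3, 298.4 and 277.2 TPM before and 3137, 3042 and 3083 after (3.51 ± 0.09). Ddost rose from 152.7, 166.2 and 170.8 TPM to 1664, 1714 and 1521 (3.32 ± 0.08), and Rpn1 by the same 3.32 ± 0.09. The catalytic subunit Stt3a, which is known to act on chains as they enter the ER, rose by 2.30 ± 0.12. Its counterpart Stt3b, which acts after entry, had 123.3, 118.2 and 113.8 TPM in NP-specific B cells against 180.3, 203.3 and 139.3 in PCs, a change of 0.54 ± 0.15 without a call. With Ig genes kept, 11 of the N-glycan genes were still higher and 6 were lower.

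ER-associated degradation, which returns misfolded chains to the cytosol, had 20 of 30 genes higher and 1 lower, with a median of 1.33, and 10 higher and 5 lower with Ig genes kept. Derl3, a derlin of the retrotranslocation channel (chromosome 10, 75893413 to 75895941), had 37.9, 37.9 and 42.1 TPM before and 993.5, 1038 and 1062 after (4.70 ± 0.11, adjusted p = 1.34e-10, limma). The signal peptide peptidase H13 rose by 4.16 ± 0.10 and the mannosidase-like lectin Edem2 by 4.06 ± 0.10. The single fall was Ube2j2, an ER-bound ubiquitin-conjugating enzyme, at 160.0, 107.8 and 141.6 TPM before and 38.9, 39 and 29.8 after (-1.90 ± 0.19). Its relative Ube2j1 moved the other way (2.57). Proteasome subunits, to which these chains are delivered, gave 0 calls in either direction among 38 tested with the main scaling, 1 rise with the median of ratios and 30 falls with Ig genes kept.

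Vesicle transport between ER and Golgi had 45 of 66 genes higher and 2 lower, with a median of 1.37, and 17 higher and 9 lower with Ig genes kept. Sec24d, a cargo-binding COPII coat protein, had 3.15, 3.71 and 2.27 TPM in NP-specific B cells against 123.8, 152.9 and 130.1 in PCs (5.28 ± 0.23, adjusted p = 1.24e-08, limma). Ergic1 of the intermediate compartment rose from 40.2, 25.5 and 30.4 TPM to 940.2, 947.4 and 794.1 (4.8 ± 0.15). Within the COPI coat, Copz2 rose by 4.67 ± 0.35 from 1.51 TPM or less, whereas Copg2 fell from 29.9, 32.5 and 30.5 TPM to 8.78, 16.8 and 8.42 (-1.48 ± 0.22). Golgi sugar transfer had 9 rises and 6 falls of 26 (34.6% and 23.1%, the falls near the 24.0% of all genes), and 4 and 9 with Ig genes kept. Its rises included Gne (2.78 ± 0.15), the first enzyme of sialic acid synthesis, and Fut8 (2.76 ± 0.19), which adds the core fucose of antibody glycans, and St3gal6, a sialyltransferase, was its largest fall (-2.34 ± 0.15). Rab GTPases, the switches of vesicle traffic, had 6 rises and 12 falls of 44 (13.6% and 27.3%, near the 10.7% and 24.0% of all genes), with 9 and 9 by the median of ratios and 3 and 30 with Ig genes kept. The secretory granule Rabs Rab3b, Rab26 and Rab3d gave the 3 largest rises (3.94, 3.08 and 3.07), each from 2.49 TPM or less to between 13.1 and 20.5.

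UPR regulators themselves were uneven. Of 19 tested, 10 were higher and 1 lower, with a median of 1.10, and with Ig genes kept 4 were higher and 4 lower. Xbp1 (chromosome 11, 5520659 to 5525893) had 157.3, 142.5 and 168.2 TPM in NP-specific B cells against 4240, 4564 and 3717 in PCs (4.74 ± 0.10). Ern1, which encodes IRE1, rose from 3.89, 2.83 and 3.49 TPM to 60.8, 58.6 and 44.6 (3.82 ± 0.24, adjusted p = 1.85e-07, limma). Creb3l2, a membrane-bound transcription factor of the ER, rose from 0.784, 2.46 and 1.68 TPM to 58.3, 62.3 and 47.3 (4.79 ± 0.30). Eif2ak3, which encodes PERK, had 16.1, 13 and 15.1 TPM before and 7.69, 8.16 and 6.02 after (-0.97 ± 0.20, not called), and Ddit3, which encodes CHOP, had 22.5 to 28.6 TPM before and 30.3 to 36.2 after (0.38 ± 0.14, not called). Cebpg, a partner of ATF4, was the single fall (-1.01 ± 0.27) and was not called with the median of ratios, without NP-specific B cell replicate 1 or without PC replicate 3, where the group had 0 falls. Leaving out NP-specific B cell replicate 2 or PC replicate 1 or 2 gave 2 falls.

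**Figure D2:**
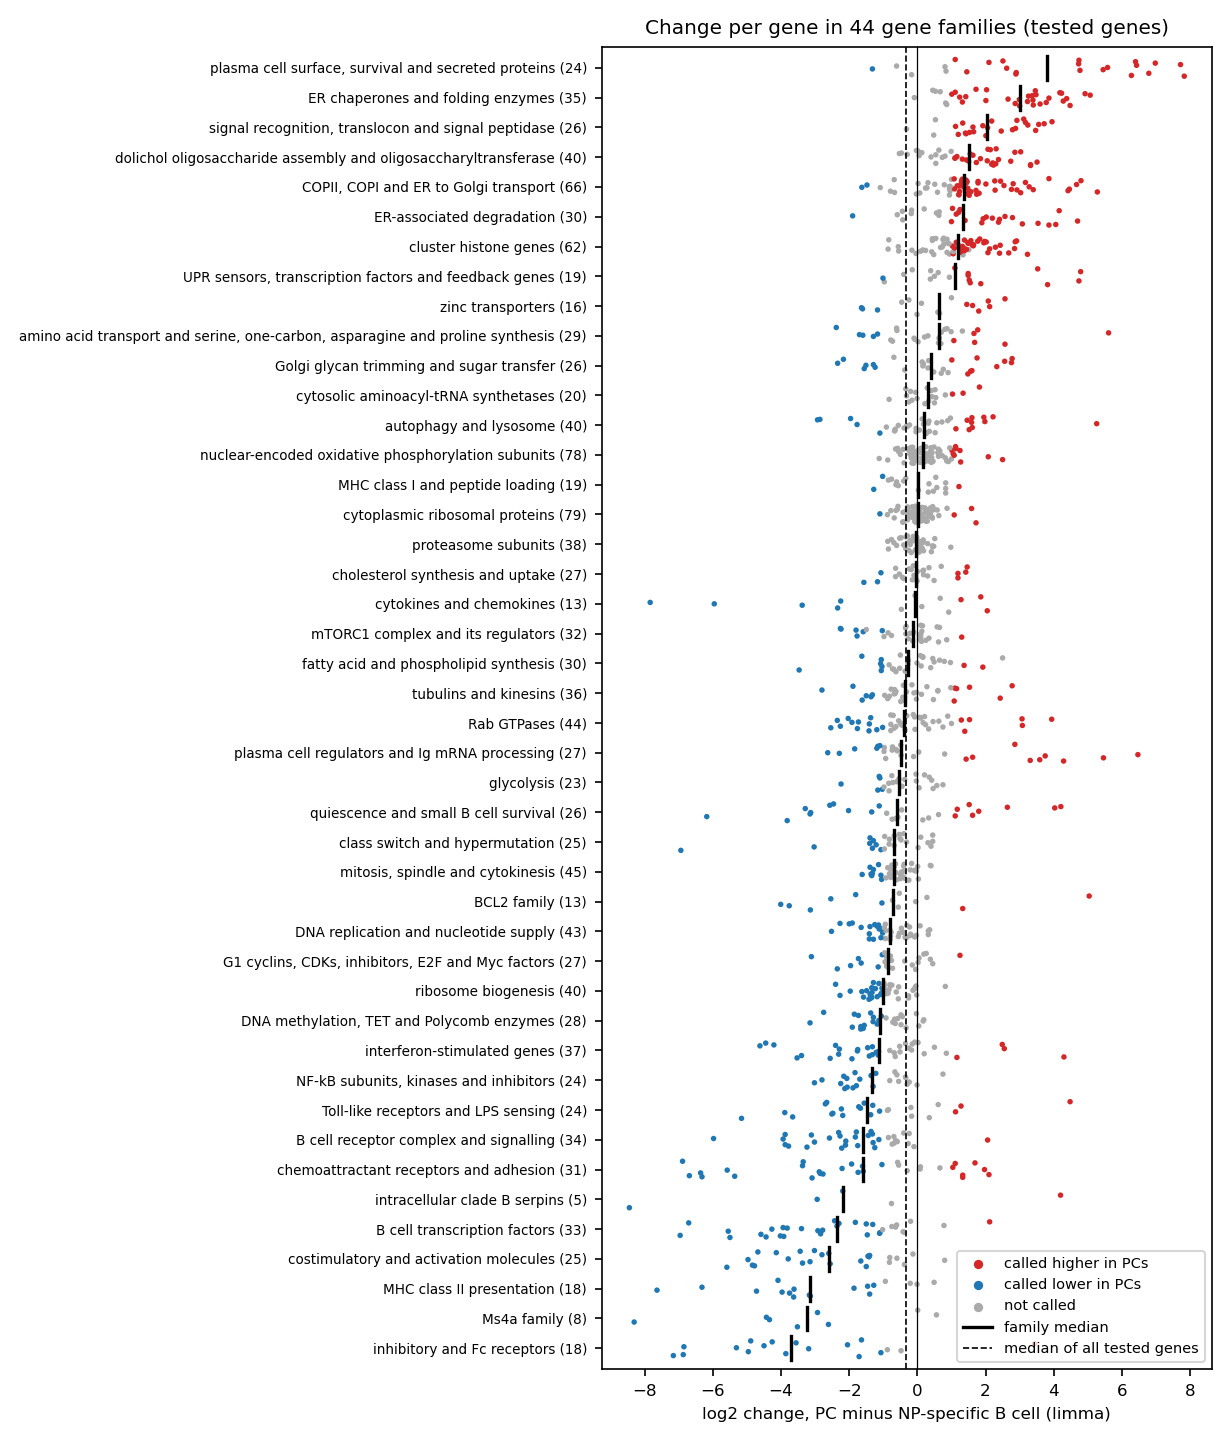
Log2 change (PC minus NP-specific B cell) of each tested gene in 44 families, ordered by family median (black bar), with the number tested in brackets. Colours mark genes called higher, called lower or not called, and the dashed line is the median of all tested genes (-0.34); the medians run from 3.81 for PC surface and secreted proteins to -3.71 for inhibitory and Fc receptors.

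Surface, survival and secreted proteins of PCs had the highest median change of the 44 families. The list was drawn up from PC genes with earlier results of these data known, so this rank is a description only. The sort marker Sdc1 (chromosome 12, 8771323 to 8793715) had 0.093, 1.26 and 1.48 TPM in NP-specific B cells against 293.5, 322.4 and 254.6 in PCs, and Prdm1 had 3.09, 3.94 and 7.24 against 99.8, 116.3 and 78.4. Both follow from the gates. Of 24 tested PC surface, survival and secreted proteins, 19 were higher and 1 lower, with a median of 3.81, or 3.34 without PC replicate 3. The 19 include the sort marker Sdc1. Tnfrsf17, the survival receptor BCMA, had 7.32, 18.6 and 5.21 TPM before and 732.3, 802.1 and 672.4 after (6.28 ± 0.29). Slpi, a secreted protease inhibitor, rose from 16.7, 25.3 and 9.36 TPM to 1449, 1483 and 1291 (6.43 ± 0.24), and Pon3, a paraoxonase, from 7.39, 18.8 and 10.9 TPM to 990.6, 1079 and 963.7 (6.4 ± 0.24). These 3 genes were separated between groups by a wide gap. The single fall, Il6ra (the interleukin-6 receptor, -1.32 ± 0.22), was not called with the median of ratios.

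Cd28 and Tigit, receptors better known from T cells, were among the 15 largest rises. Cd28 (chromosome 1, 60716800 to 60773359), a costimulatory receptor, had 0.127, 0.671 and 1.5 TPM in NP-specific B cells against 132.9, 141.5 and 104.9 in PCs (6.79 ± 0.37, adjusted p = 6.60e-08, limma). Tigit (chromosome 16, 43648867 to 43664146), an inhibitory receptor, had 1.12, 1.82 and 1.56 TPM before and 146.6, 146.4 and 134.9 after (6.17 ± 0.21, adjusted p = 2.14e-09, limma). Ctla4, another inhibitory receptor, rose from 0.687, 1.2 and 0.461 TPM to 10.8, 14.9 and 13.7 (3.44 ± 0.28). Of 13 T cell markers 5 were tested and 0 were called higher. Lck, a kinase that the naive B cells also held at 49.5 to 56.7 TPM, had 37.3, 20.4 and 53.7 TPM before and 0.433, 0.264 and 0.995 after, and the other tested marker called lower was Cd5 (-2.05). Cd3d (-0.29), Cd8a (0.35) and Cd3g (0.98) were not called. Cd3g had 0.0, 0.0396 and 1.08 TPM before and 0.255, 1.61 and 1.56 after, and Trac is listed at 0 in all 6 libraries. The part of other cells in these rises was not tested. The remaining genes with the largest rises were Hid1, a Golgi protein of secretory granules (6.98 ± 0.28), Fam46c, a poly(A) polymerase (6.47 ± 0.30), Gpx3, a secreted glutathione peroxidase (6.09 ± 0.35), Trp53inp1, a p53-inducible protein (6.05 ± 0.32), Chst1, a sulfotransferase (5.99 ± 0.38), Selm, a selenoprotein of the ER (5.97 ± 0.26), and the receptor Gpr160 (5.85 ± 0.31).

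Among PC regulators and the machinery that processes Ig messages, 9 of 27 were higher (33.3%) and 6 lower (22.2%), with a median of -0.49. The falls lay near the 24.0% of all genes, and the rises include the sort marker Prdm1. The counts were 10 and 3 by the median of ratios, and 7 and 17 with Ig genes kept. Bhlha15, the transcription factor Mist1 of secretory cells, had 2.78, 1.02 and 2.70 TPM before and 110.3, 123.1 and 98.1 after (5.46 ± 0.27, adjusted p = 2.99e-08, limma). Ell2 (3.59 ± 0.17), an elongation factor known to favour the secreted form of the heavy chain, and its partner Eaf2 (3.75 ± 0.14) rose. The elongation factors Cdk9 and Aff4 fell. Cdk9, the kinase of P-TEFb, had 214.1, 144.0 and 190.6 TPM before and 31.3, 35.3 and 21.5 after (-2.63 ± 0.21), and the scaffold Aff4 fell by 2.29 ± 0.40 on the log2 scale. Irf4, which acts in both cell states, rose from 7.12, 14.0 and 12.2 TPM to 114.4, 133.8 and 88.8 (3.31 ± 0.25).

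B cell transcription factors fell in 24 of 33 cases and rose in 1, with a median of -2.36. Their sum was 2804 to 3096 TPM in NP-specific B cells, 3389 to 3562 in naive B cells and 648.3 to 749.4 in PCs. Pax5, which sustains B cell identity, had 42.9, 56.8 and 51.7 TPM before and 1.18, 0.219 and 0.665 after (-5.50 ± 0.33, adjusted p = 1.43e-07, limma). Spib, an Ets factor (chromosome 7, 44525993 to 44532071), had 190.7, 217.1 and 203.7 TPM before and 1.06, 1.00 and 1.38 after (-6.96 ± 0.25). Zbtb32, a repressor of the zinc finger type, fell by 6.71 ± 0.19 on the log2 scale. At levels near 1 TPM or below, a fitted change depends on the offset of 0.5 added before taking logs, and the values per library are the firmer statement. Ebf1 (-4.44), Irf8 (-4.59), Bcl6 (-4.02) and Bach2 (-3.92) fell as well. Id3, an inhibitor of E proteins, fell from 132.3, 131.0 and 147.9 TPM to 0.956, 1.04 and 10.7, with the highest PC value in replicate 3. The single rise was the immediate early gene Egr1, from 28.6, 18.7 and 23.6 TPM to 114.3, 102.3 and 93.4 (2.12 ± 0.15). Without PC replicate 3 there were 2 rises, and with Ig genes kept there were 0 rises and 30 falls.

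Fos and Jun, immediate early genes like Egr1, also rose. They stand on a list of quiescence and small B cell survival genes. Of its 26 tested genes, 8 were higher (30.8%, against 10.7% of all genes) and 10 lower (38.5%, against 24.0%). These counts turned to 9 and 8 by the median of ratios, and to 3 and 15 with Ig genes kept. Fos had 43.8, 34.9 and 40.9 TPM before and 671.0, 654.0 and 644.8 after (4.03 ± 0.11, adjusted p = 5.60e-10, limma). Jun had 13.6, 11.3 and 12.7 TPM before and 263.8, 246.5 and 213.2 after (4.21 ± 0.16). Members of the same AP-1 family went in opposite directions, since Jund (-2.57) and Junb (-1.12) fell. The fall of Junb was close to the 2-fold threshold. Immediate early genes are also known to respond to tissue dissociation, for which these libraries hold no measure, and that was not tested. Btg1, an antiproliferative gene, fell from 204.6, 162.4 and 207.8 TPM to 2.49, 1.5 and 2.53 (-6.18 ± 0.36), and Klf2, which governs lymphocyte homing, changed by -3.82 ± 0.33.

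MHC class II presentation fell in 14 of 18 genes with 0 rises and a median of -3.16, and its sum went from 35370 to 36605 TPM in NP-specific B cells (naive cells had 55839 to 61626) to 7135 to 7905 in PCs. Ciita, the master regulator of the class II genes (chromosome 16, 10480059 to 10528418), had 88.3, 79.5 and 78.1 TPM before and 0.424, 0.455 and 0.747 after (-6.32 ± 0.24). Genes under it fell unequally. H2-Aa fell from 3185, 3431 and 3272 TPM to 263.5, 264.3 and 270.2 (-3.63 ± 0.08), whereas Cd74 changed by -1.86 ± 0.07 and kept at least 4815 TPM in every PC library. The peptide-editing chains H2-Oa (-7.64 ± 0.44) and H2-DMb2 (-4.72 ± 0.10) lost most, and the proteases Ctss and Lgmn were not called. MHC class I did not follow. Of 19 class I and peptide-loading genes, 1 was higher (5.26%) and 2 lower (10.5%), below the 10.7% and 24.0% of all genes. The counts were 4 and 0 by the median of ratios and 0 and 9 with Ig genes kept. Without NP-specific B cell replicate 1 or 2, or PC replicate 3, a single gene was lower. The rise was B2m, the light chain, from 1658, 2395 and 2120 TPM to 4496, 4284 and 5469 (1.22 ± 0.14).

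**Figure D3:**
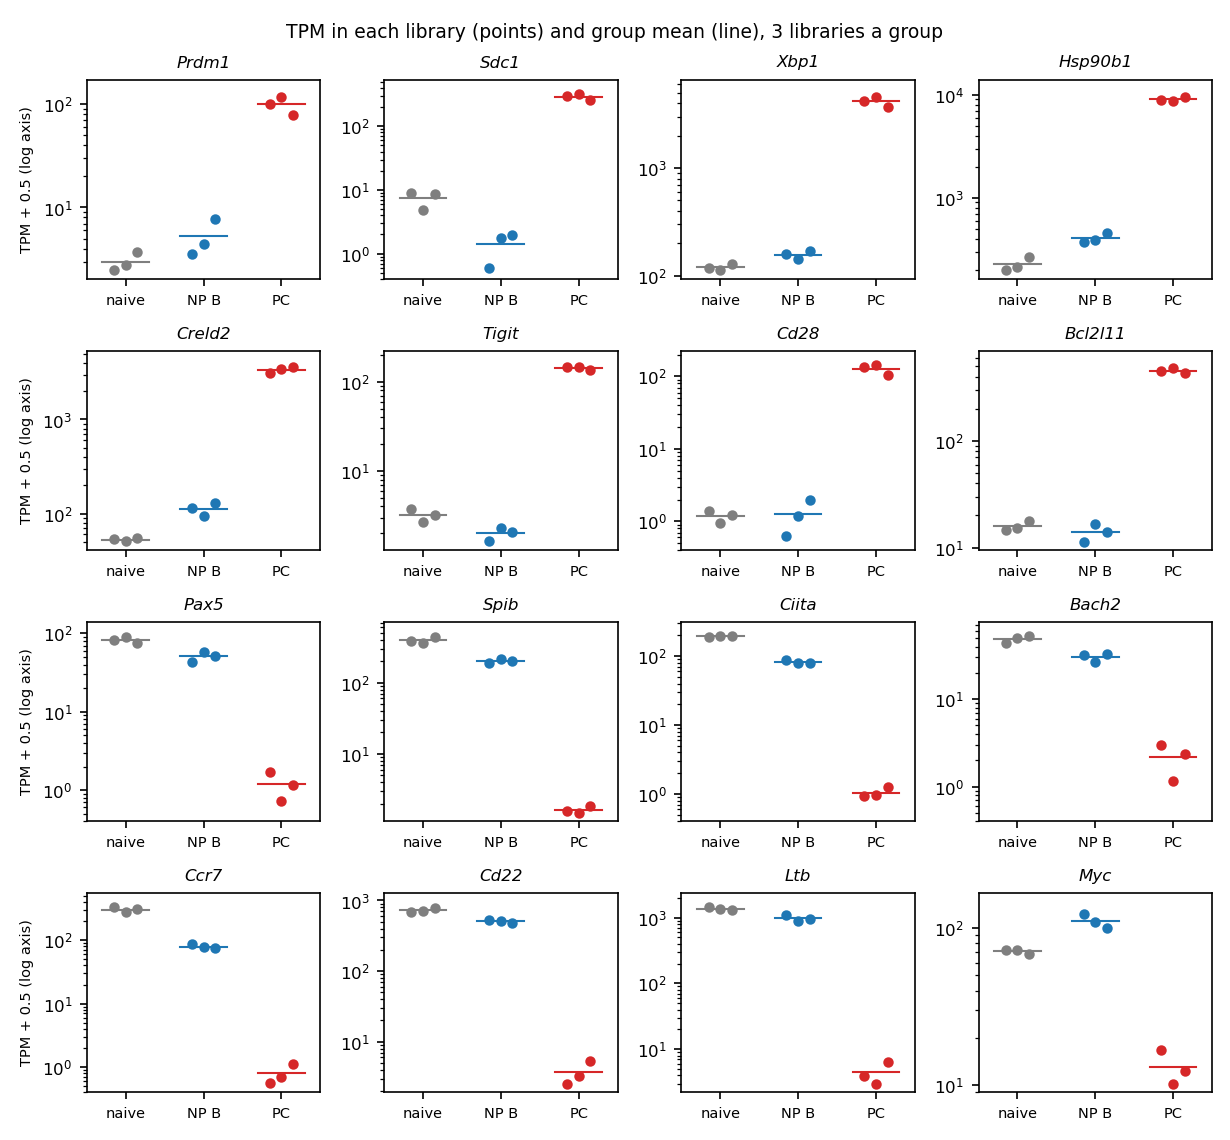
TPM + 0.5 on a log axis for 16 genes in the 9 libraries, as points with the group mean as a line (3 libraries a group). The genes in the upper rows are higher in every PC library than in any other, and those in the lower rows are lower in every PC library than in any NP-specific B cell library.

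The B cell receptor pathway fell in 23 of 34 genes, with 1 rise and a median of -1.59, and by the median of ratios in 18. Cd79b, a signalling chain of the receptor, had 2007, 2189 and 2187 TPM before and 891.4, 952.1 and 830.6 after (-1.25 ± 0.08), which the median of ratios did not call, and its partner Cd79a fell by 2.22 ± 0.08 on the log2 scale. The adaptor Bank1 had 284.8, 304.0 and 332.9 TPM before and 18.9, 21.3 and 18.4 after (-3.94 ± 0.13), and the kinase Blk fell by 3.88 ± 0.14. Prkcb, a protein kinase C, had the largest fitted fall (-5.98 ± 1.10), but its NP-specific B cell values of 388.2, 55.5 and 205.5 TPM were far apart. Btk, Blnk and Plcg2 were not called. The single rise was Pik3cg, a phosphoinositide kinase, from 16, 13.8 and 11.7 TPM to 60.0, 75.9 and 44.3 (2.06 ± 0.22). With Ig genes kept the pathway had 0 rises and 32 falls.

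Inhibitory and Fc receptors had the lowest median of the 44 families, at -3.71. Of 18 tested, 15 were lower, and Ctla4 was the single rise. Cd22, a sialic acid-binding inhibitor of the receptor (chromosome 7, 30865402 to 30880342), had 527.7, 514.0 and 484.6 TPM before and 2.05, 2.80 and 4.83 after (-7.16 ± 0.23, adjusted p = 1.26e-09, limma). Cd72 fell from 548.1, 342.3 and 526.7 TPM to 3.99, 2.38 and 4.30 (-6.87 ± 0.34), and the change of Fcer2a, the low-affinity IgE receptor, was -6.85 ± 0.25. Fcgr2b, the inhibitory IgG receptor known to act on PCs too, fell by 1.71 on the log2 scale. Costimulatory and activation molecules fell in 19 of 25 cases with 0 rises (median -2.60). Cd40, the receptor for T cell help, had 173.8, 150.1 and 146.3 TPM before and 2.73, 1.76 and 4.14 after (-5.59 ± 0.24). Cd38 (-4.97 ± 0.17) and Cd83 (-4.84 ± 0.27) also fell, and Cd69 and Cd48 were not called. Mean TPM in naive and NP-specific B cells was 261.6 and 250.7 for Cd38 and 374.4 and 389.3 for Cd83, so these falls were not from a level gained on activation. Ms4a genes, the family of Cd20, fell in 6 of 8 cases, led by Ms4a4c from 270.2, 257.7 and 308.9 TPM to 0.754 or less (-8.31 ± 0.34). The intracellular serpin Serpinb1a had the largest fall of all named genes, from 352.4, 363.6 and 363.3 TPM to 0.919, 0.0917 and 0.796 (-8.45 ± 0.28).

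Genes that sense bacterial products changed unevenly. Of 24 Toll-like receptor and LPS-sensing genes, 15 were lower (62.5%, against 24.0% of all genes), with a median of -1.47. The 3 that were higher made up 12.5%, near the 10.7% of all genes. With Ig genes kept 1 was higher and 19 were lower. Cd180 and Ly86, which form an LPS-responsive receptor of B cells, both fell, from 62.0, 65.3 and 64.3 TPM to 11.3, 13.6 and 8.74 (-2.48 ± 0.17) for Cd180, with a change of -3.89 ± 0.14 for Ly86. The LPS receptor Tlr4 itself had 9.06, 7.61 and 6.25 TPM before and 6.04, 7.63 and 6.42 after (-0.17 ± 0.24, not called), with overlapping groups. Tlr1 (-5.16 ± 0.36) and Tlr3 (-3.66 ± 0.35) were lower. The 3 rises were Hsp90b1, which folds these receptors and is also counted with the chaperones, the adaptor Ticam1 (1.28 ± 0.17) and the LPS co-receptor Ly96 (1.12 ± 0.17, turning to -0.08 with Ig genes kept). NF-kB subunits, kinases and inhibitors fell in 14 of 24 cases with 0 rises (median -1.33), and 23 with Ig genes kept, among them Nfkbid (-3.02 ± 0.28), Bcl3 (-2.80 ± 0.33) and Nfkbie (-2.25 ± 0.18).

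Receptors that guide cells within and out of the spleen changed in both directions, with 18 of 31 lower and 7 higher (median -1.61), and with Ig genes kept 22 lower and 0 higher. Ccr7, which draws cells to the T cell zone, had 86.1, 76.2 and 73.6 TPM before and 0.0572, 0.195 and 0.639 after (-6.69 ± 0.32). Cxcr5, the receptor for the follicle, had 87.4, 89.0 and 84.4 TPM before and 0.104, 0.748 and 1.21 after (-6.32 ± 0.30). The sphingosine receptor S1pr3 (-6.36 ± 0.26) and Rgs13 (-6.89 ± 0.43), which dampens chemokine signals, fell too. On the other side, Cxcr4, which guides PCs to bone marrow, had 6.93, 4.58 and 8.39 TPM before and 17.5, 18.6 and 15 after (1.33 ± 0.23). Selplg, the ligand of P-selectin, rose by 1.97 ± 0.11, Cd44 by 1.69 ± 0.18, and Ccr10, a receptor of mucosal PCs, by 2.10 ± 0.34 to at most 2.78 TPM.

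Cytokines fell in 5 of 13 cases (38.5%, against 24.0% of all genes) and rose in 3 (23.1%, against 10.7%). Once Ig genes were kept there were 0 rises and 8 falls. Ltb (chromosome 17, 35194439 to 35196320), which with Lta makes the lymphotoxin that organises follicles, had 1078, 884.7 and 967.2 TPM before and 3.48, 2.5 and 5.92 after (-7.84 ± 0.24, adjusted p = 1.02e-09, limma). Lta (-5.96 ± 0.38) and Tnf (-3.38 ± 0.39), from the same gene cluster, fell with it. The rises were all small in level, with Il15, Vegfa and Ccl5 at 3.27 TPM or less. Among interferon-stimulated genes 19 of 37 fell (51.4%, against 24.0% of all genes), with a median of -1.14. The 4 rises made up 10.8%, near the 10.7% of all genes. Gbp2, a guanylate-binding protein, had 31.8, 30.9 and 35.4 TPM before and 1.22, 0.234 and 1.44 after (-4.62 ± 0.30). Isg20, an exonuclease, went the other way, from 41.2, 33.4 and 42.9 TPM to 721.2, 780.0 and 825.3 (4.30 ± 0.11), as did Bst2 (2.55 ± 0.15) and the nucleic acid sensor Zbp1 (2.49 ± 0.11). The letters of the interferon-stimulated response element, GAAA repeated after 2 free bases and read on either strand, stood before 15 of the 28 such genes with a promoter, against 3.48% of all, and before 2 of the 3 that rose and 8 of the 14 that fell.

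In the BCL2 family, which sets the threshold for apoptosis, 2 of 13 genes were higher (15.4%) and 6 lower (46.2%). Of all genes 10.7% were higher and 24.0% lower. With Ig genes kept 1 of the family was higher and 9 were lower. Bcl2l11, the killer protein BIM (chromosome 2, 128126038 to 128162547), had 10.9, 16.3 and 13.5 TPM in NP-specific B cells against 450.0, 480.9 and 437.3 in PCs (5.04 ± 0.14, adjusted p = 6.12e-10, limma). Survival members of the family fell, namely Bcl2 from 61.0, 64.0 and 54.2 TPM to 6.26, 5.18 and 7.64 (-3.14 ± 0.17) and Bcl2a1b from 223.0, 244.1 and 223.7 TPM to 15.3, 14.4 and 20.4 (-3.76 ± 0.14). Bcl2a1b and Bcl2a1d are near-identical copies, so their reads may have been shared out between them. Bcl2l1, the survival protein BCL-XL, rose by 1.33 ± 0.23, from 7.18 to 15.3 TPM to 22.7 to 30.1. Mcl1, on which PCs are known to depend, had 120.5, 64.5 and 83.7 TPM before and 58.7, 58.4 and 59.0 after (-0.56 ± 0.19, not called).

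Counts for class switching and the cell cycle rested on the scaling, with fewer falls by the median of ratios and more with Ig genes kept. Of 25 class switching and repair genes, 8 were lower (32.0%, against 24.0% of all genes) and 0 higher. The counts were 3 and 0 by the median of ratios and 20 and 0 with Ig genes kept. Apex1, a base excision repair enzyme, fell from 163.4, 110.0 and 117.6 TPM to 11.2, 18.1 and 17.4 (-3.03 ± 0.22). Mitosis genes were lower in 9 of 45 cases, a smaller share than the 24.0% of all genes, in 1 by the median of ratios and in 43 with Ig genes kept. Their sum was 3042 to 3947 TPM in NP-specific B cells, 2337 to 2895 in PCs and 498.5 to 561.2 in naive B cells, so PCs stayed well above naive cells. The letters TTTGAA, the cell cycle homology region, stood on either strand before 13 of 39 mitosis genes with a promoter, against 13.3% of all.

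DNA replication genes were lower in 17 of 43 cases, or 7 by the median of ratios and 40 with Ig genes kept, led by the polymerase subunit Pold1 (-2.52 ± 0.18) and the histone chaperone Chaf1b (-2.27 ± 0.22). Cell cycle entry genes were lower in 7 of 27 cases (25.9%, close to the 24.0% of all genes), in 5 by the median of ratios and in 21 with Ig genes kept (12 without NP-specific B cell replicate 2, where 25.8% of all genes were lower and 11.1% higher). Myc, the growth regulator, had 122.1, 109.1 and 99.0 TPM before and 16.1, 9.66 and 11.8 after (-3.11 ± 0.17), and Ccnd3, a D-type cyclin, had 220.1, 149.8 and 233.3 before and 38.8, 36.6 and 39.7 after (-2.35 ± 0.18). Ribosome biogenesis genes, many of them known Myc targets, were lower in 20 of 40 cases, or 7 by the median of ratios and 39 with Ig genes kept, and their sum fell below the naive level (2638 to 2740 TPM in naive cells, 3304 to 3591 in NP-specific B cells, 1514 to 1597 in PCs). Ribosomal protein genes did not follow, with 3 higher and 1 lower of 79 and a median of 0.02 (0 and 55 with Ig genes kept). DNA methylation, TET and Polycomb genes were lower in 15 of 28 cases, or 9 by the median of ratios and 25 with Ig genes kept, with 0 higher, including Eed (-3.15 ± 0.27), a core Polycomb subunit, and Uhrf1 (-1.91 ± 0.18), which guides maintenance methylation.

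**Figure D4:**
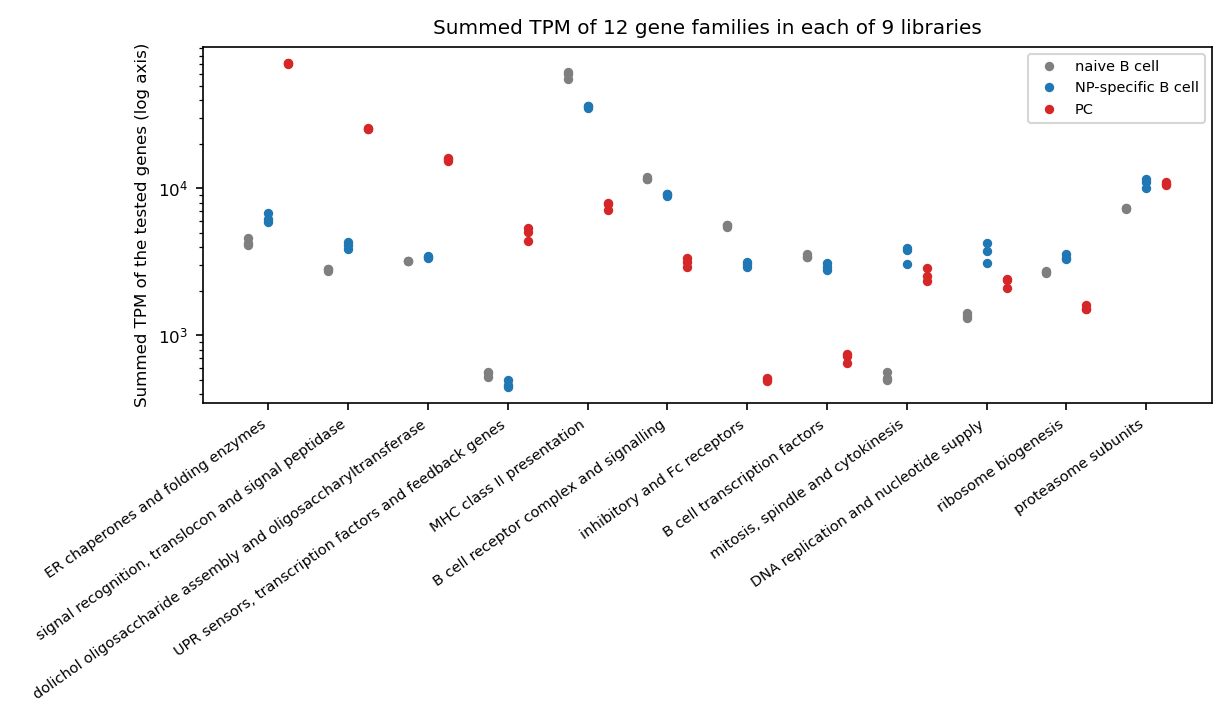
Summed TPM of 12 gene families on a log axis, a point for each of the 9 libraries. ER chaperones stand at 70820 to 71227 TPM in PCs against 5914 to 6807 in NP-specific B cells, MHC class II falls to 7135 to 7905, and mitosis genes stand above their naive level in both NP-binding groups.

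Counts for metabolic families rested on the scaling, and the families held single genes that moved far. Amino acid transport and synthesis had 6 rises and 5 falls of 29. The rises were a larger share than the 10.7% of all genes, and the falls a smaller share than the 24.0%. The counts were 13 and 3 by the median of ratios and 2 and 11 with Ig genes kept. Pycr1, the last enzyme of proline synthesis (chromosome 11, 120635712 to 120643769), had 3.54, 3.49 and 2.34 TPM before and 185.7, 184.8 and 154.5 after (5.61 ± 0.21, adjusted p = 3.08e-09, limma). Slc3a2, the heavy chain of amino acid transporters, rose from 27.2, 23.2 and 24.7 TPM to 163.2, 149.7 and 140.4 (2.57 ± 0.12), and Glud1, glutamate dehydrogenase, fell by 2.38 ± 0.20. Genes of mTORC1 and its regulators, the sensor of amino acids, were lower in 6 of 32 cases (18.8%, against 24.0% of all genes) and higher in 1, with 5 and 4 by the median of ratios and 20 and 0 with Ig genes kept. The 3 largest falls among them are inhibitors of mTORC1, namely Ddit4 (-2.26 ± 0.26), Gatsl3 (-2.24 ± 0.37) and Sesn1 (-1.80 ± 0.15), and the rise was the amino acid-sensing GTPase Rraga (1.30 ± 0.16). Glycolysis had 5 falls of 23 (21.7%, near the 24.0% of all genes), or 1 by the median of ratios, 16 with Ig genes kept and 3 without NP-specific B cell replicate 1 or 2. Nuclear-encoded oxidative phosphorylation genes had 9 rises of 78 (11.5%, near the 10.7% of all genes) and 0 falls, or 19 and 0 by the median of ratios, and 0 rises and 39 falls with Ig genes kept. Scd1, a fatty acid desaturase, fell from 122.3, 141.1 and 141.2 TPM to 9.06, 8.21 and 21.3 (-3.47 ± 0.25).

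Autophagy and lysosome genes had 10 rises and 5 falls of 40. The rises were a larger share than the 10.7% of all genes, and the falls a smaller share than the 24.0%. The counts turned to 1 and 18 with Ig genes kept, and there were 3 falls without NP-specific B cell replicate 1. Wipi1, which binds phosphoinositides at forming autophagosomes (chromosome 11, 109573331 to 109611967), had 0.216, 0.368 and 0.363 TPM before and 31.9, 36.6 and 24.5 after (5.26 ± 0.32). The autophagy receptor Optn (-2.93 ± 0.24) and the lysosomal regulator Tfeb (-2.86 ± 0.20) fell. Zinc transporters had 6 rises and 3 falls of 16 (37.5% and 18.8%, against 10.7% and 24.0% of all genes). The counts were 8 and 1 by the median of ratios and 1 and 5 with Ig genes kept, with a single fall without PC replicate 2. The rises were led by Slc39a7, which releases zinc from the ER and Golgi, from 66.5, 60.3 and 56.0 TPM to 350.9, 399.0 and 340.5 (2.57 ± 0.11). Cluster histone genes were called higher in 34 of 62 cases with 0 falls, a median of 1.19, and 5 rises and 4 falls with Ig genes kept. They share near-identical sequences and most of their messages lack a poly(A) tail, so reads may have been split between copies and the values are uncertain. Hist1h1c, a linker histone, had 7.29, 10.6 and 7.69 TPM before and 93.8, 92.9 and 65.6 after (3.23 ± 0.21).

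The weight of PC replicate 3 was then measured. In that library 185 genes had at least 10 TPM and at least 10 times the value of both other PC libraries, 2.26% of its TPM in all, and the same rule found 0 genes in PC replicate 1 and 0 in replicate 2. Of the 185 genes, 30 were on the list of 32 liver markers. Alb, serum albumin, had 0.166, 0.081 and 660.5 TPM in PC replicates 1, 2 and 3, and Apoa1, an apolipoprotein, had 0.00, 0.316 and 797.5. Neither reached the minimum in 3 libraries, so neither was tested. Of the 185 genes 40 were tested and 4 were called higher, Trf, Mt2 and Tmem205 among them.

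Single high values widened the error of those genes more than they made calls. Apoa2, an apolipoprotein, had 4.62, 2.91 and 3.75 TPM in NP-specific B cells against 25.2, 21.6 and 2682 in PCs, a change of 4.78 ± 2.53 that was not called (adjusted p = 0.127, limma). Without PC replicate 3 the change was 2.51 ± 0.21 and was called (adjusted p = 4.73e-06, limma). Trf, transferrin, had 37.6, 42.3 and 641.6 TPM in PCs and changed by 6.38 ± 1.98 with the library and 5.05 ± 0.31 without it. Mt1, a metallothionein, had 154.2, 164.4 and 554.7 TPM in PCs and changed by 7.72 ± 1.08 with it and 7.13 ± 0.40 without it. Apoc1 (1.05, 0.527 and 2309 TPM in PCs) changed by -0.38 ± 0.59 without it and was called in neither fit. Over all genes, 78 calls of a rise were lost and 91 gained without PC replicate 3, which gave 1272 rises (10.8%) and 2748 falls (23.4%), and 0 called genes changed sign. Leaving out PC replicate 1 or 2 lost 85 such calls each. Of the calls of a fall, 245 were lost and 169 gained without PC replicate 3, more losses than the 155 without replicate 1 or the 173 without replicate 2.

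**Figure D5:**
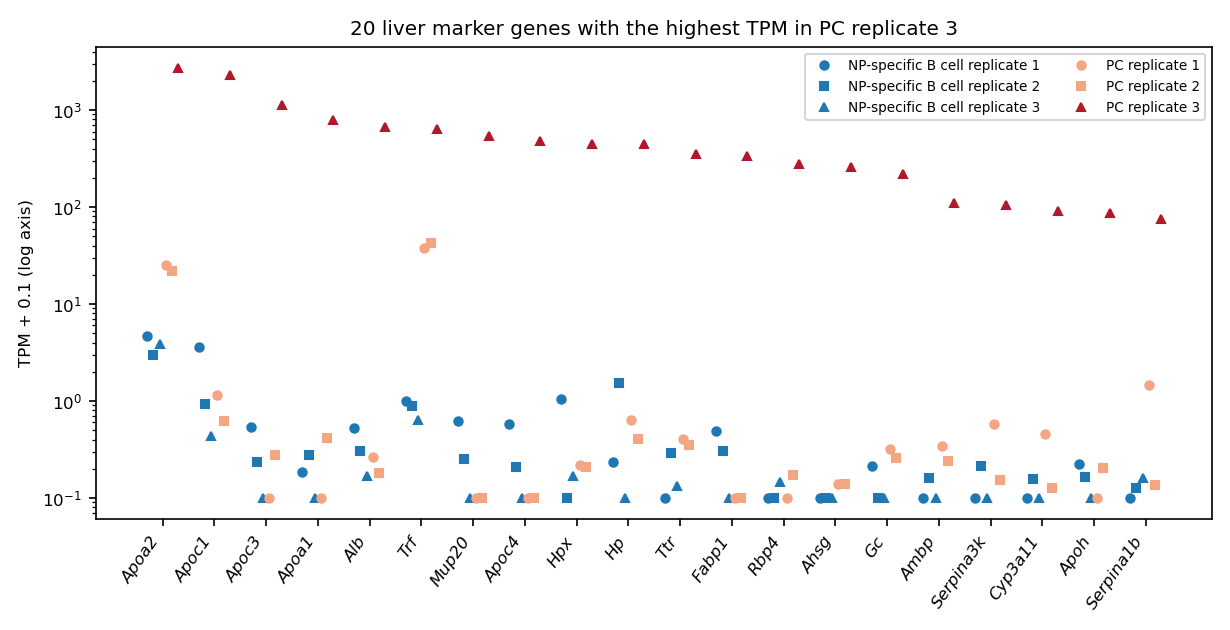
TPM + 0.1 on a log axis of the 20 liver markers with the highest value in PC replicate 3, in 6 libraries. Every marker shown is highest in PC replicate 3, and only Apoa2 and Trf exceed 20 TPM in PC replicates 1 and 2.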

How the data were processed

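RNA of cells sorted from spleen was made into cDNA with a SMARTer v4 kit and into libraries with Nextera XT reagents. The authors estimated transcript levels with kallisto against mouse transcripts (mm10) and deposited TPM per gene symbol, with and without Ig genes. The deposited log2 values are voom values of the authors, that is log2 CPM of estimated counts. The annotation release and the sequencer of each library are not given in the sources used here. Multi-copy genes share reads by estimation.

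TPM without Ig genes were fitted with voom in limma 3.58.1 (R 4.3.3), all 9 libraries in 3 group means. The study's methods describe voom on TPM, whereas its deposited log2 values are of estimated counts. A log2 change is the PC mean minus the NP-specific B cell mean of log2(TPM + 0.5) values scaled to the column sum. Calls needed a Benjamini-Hochberg adjusted p under 0.05 over 11759 genes and a fold over 2. The read depth of each library was recovered from the value that the deposited log2 tables give to a gene without reads. The fit was also run on simulated data, whose outcome is not reported here and is not relied on.

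Named genes were the 15 largest rises and falls among called genes that did not overlap between groups and had a mean of at least 10 TPM, up to 3 rises and 3 falls of each of 44 families, the sort and identity genes, and contrasting relatives named after their values were seen. Members and lists were chosen with earlier results of these data known. Coordinates are from GENCODE vM21 (GRCm38), and promoters from RefSeq. Some genes that these rules name are not reported here.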

Additional observations from a re-analysis of the deposited data

How the results depend on the processing

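The counts of 1259 rises and 2824 falls moved by more than 1.5 times under few alternatives. Scaling by the median of ratios gave 1949 rises and 1750 falls, quantile normalization gave 1797 falls beside 1794 rises, and keeping the Ig genes gave 405 rises and 7279 falls. A minimum mean of 10 TPM, which left 7031 genes to test, gave 773 and 1762. Quantile normalization raised the median of all genes by 0.34 and made rises 50.0% of calls, and keeping Ig genes lowered it by 1.07 and made them 5.27%. The remaining settings (no filter, offsets of 0.1 and 1, the authors' log2 values, estimated counts and the 6 libraries alone) gave 1176 to 1410 rises and 2662 to 2949 falls. Leaving out each library in turn gave 1182 to 1301 rises and 2664 to 3030 falls. With the replicate number as a block the counts were 1282 and 2853. Both NP-binding populations came from 3 animals, but the labels do not say that a number marks an animal, and deviations of same-numbered B cell and PC libraries correlated at 0.00371, 0.0158 and 0.0297, so the numbers were not taken as pairs. Of 179 genes named, 158 were called. Among those, Ly96 alone changed sign, to -0.08 with Ig genes kept, and was then not called. The call was lost by 12 further genes with Ig genes kept, by 4 with the median of ratios, and by 6 in at least 1 fit that left out a library. Of the named genes without a call, 10 gained one with Ig genes kept. The causes were not tested. At 20189947 to 22137412 reads in PCs, values under 1 TPM rest on few reads.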
